A study of Mus musculus with 12 samples.

Results

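Cd200, Nr2f2, Ptpn13, Atp6v0d1, Ciao2b, Tia1, Pdcd7, Glt8d1, Nap1l4 and Mkrn1 are 10 mouse genes selected on their values: for each, a probe of the array follows the mean log2 ratio of the globins Hbb-b1, Hbb-bh1, Hbb-y and Hba-x over the arrays. Of the 20736 probes in the table, which name 8708 genes with a single symbol, 16 carry exactly 1 of these gene symbols, and the probe of each gene with the highest Pearson correlation to the globin mean is called its tracking probe here. That gives 10 tracking probes and 6 other probes, the latter from 4 genes (Tia1, Pdcd7, Glt8d1 and Mkrn1). The globin mean chose the tracking probes, so their values are a description with no test, and p-values are given for the 6 other probes.

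The series set RNA of spleen T cells, and in 1 group of kidney cells, beside RNA of B6 mice on 12 cDNA arrays with 2 colour channels, 2 arrays in each of 6 groups. NOD mice develop autoimmune diabetes. In NOD.H2h4 mice the NOD background has a different MHC haplotype. B6.NODIdd1,5 is a B6 congenic strain that holds the diabetes intervals Idd1 and Idd5 of NOD, and it was measured in T cells and in kidney. NODtoB6 T cells came from B6 recipients of NOD bone marrow, and B6toNOD T cells from NOD recipients of B6 bone marrow. The control channel of every T cell array held B6 spleen T cells and that of the kidney arrays held B6 kidney cells. Per the labels the strain arrays carried the experimental RNA in Cy5 and the B6 RNA in Cy3, with no dye swap named. For the 4 arrays of marrow recipients no source used here names the dyes, and their direction was taken as the same. The lowest correlation between 2 arrays over all probes was -0.024. Neither a sort or gate of the T cells, nor the age or sex of the mice, nor a statement that arrays of a group came from separate animals was found in the sources, so the spread between 2 arrays may be technical. Each array gave between 18837 and 20558 values. Array medians as deposited lay between -0.87 and -0.01 on the log2 scale, and every value below is a log2 ratio to B6 after the array's own median was set to 0.

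Globins are the protein chains of haemoglobin. Hbb-b1 is an adult beta chain, whereas Hbb-y, Hbb-bh1 and Hba-x are made mainly by the primitive red cells of the embryo, and the spleen of adult mice holds red cell precursors beside its lymphocytes. Cd200 encodes a surface glycoprotein of lymphocytes, endothelium and neurons whose receptor on myeloid cells passes an inhibitory signal, and Nr2f2 encodes COUP-TFII, an orphan nuclear receptor of venous endothelium and stroma that binds repeats of AGGTCA and has been studied at embryonic globin genes. The other 8 genes have housekeeping or signalling roles, given beside their values.

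The promoters of Cd200 and Nr2f2 are shown beside that of Hbb-y because these 2 genes had the highest NOD values of the members. Hbb-y is an embryonic globin of the mean used to choose them. Each line holds the 250 bases before the start of the gene, 5′ to 3′ along the gene, from RefSeq on GRCm38.p6. All 3 genes lie on the minus strand. Cd200 is at chr16:45409054-45409303, Nr2f2 at chr7:70366747-70366996 and Hbb-y at chr7:103853208-103853457. Capitals mark AGATAA (the GATA factor motif), CACCC (the motif of Krüppel-like factors), TGAGTCA (the core shared by AP-1 and NF-E2) and AGGTCA (the nuclear receptor half-site), searched on both strands, so that CACCC on the opposite strand reads GGGTG and AGGTCA reads TGACCT.
Cd200: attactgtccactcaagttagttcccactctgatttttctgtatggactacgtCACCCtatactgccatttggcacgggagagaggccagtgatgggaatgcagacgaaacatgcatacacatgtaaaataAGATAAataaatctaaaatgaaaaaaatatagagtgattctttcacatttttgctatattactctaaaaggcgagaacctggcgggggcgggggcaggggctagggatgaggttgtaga
Nr2f2: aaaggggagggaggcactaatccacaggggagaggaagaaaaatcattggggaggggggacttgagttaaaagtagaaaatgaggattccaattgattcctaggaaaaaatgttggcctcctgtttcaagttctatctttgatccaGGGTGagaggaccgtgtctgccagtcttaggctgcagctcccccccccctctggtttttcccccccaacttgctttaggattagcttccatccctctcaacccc
Hbb-y: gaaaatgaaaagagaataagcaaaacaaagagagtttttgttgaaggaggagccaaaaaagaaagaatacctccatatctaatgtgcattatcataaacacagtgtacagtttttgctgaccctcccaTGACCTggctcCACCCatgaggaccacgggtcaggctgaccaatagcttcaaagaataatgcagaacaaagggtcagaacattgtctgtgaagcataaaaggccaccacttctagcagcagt
In Cd200 AGATAA begins 119 bases and CACCC 197 bases before the start. Nr2f2 holds a single match, CACCC on the opposite strand 104 bases before its start, and Hbb-y holds CACCC at 111 bases and AGGTCA on the opposite strand at 122 bases. RefSeq promoters were found for 9 of the 10 genes (no entry matched Nap1l4). Of these 9, 1 held AGATAA (Cd200), 6 held CACCC, 1 held TGAGTCA (Pdcd7, 30 bases before its start) and 0 held AGGTCA. Counted by start site, as the shares that follow are, CACCC was in 7 of 11, AGATAA and TGAGTCA in 1 each and AGGTCA in 0. Among all 32851 promoters of that length in the table the shares were 9.99% for AGATAA, 52.0% for CACCC, 4.46% for TGAGTCA and 14.0% for AGGTCA. A match is a description of these letters in this window and says nothing of a factor's binding.

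The globin mean, against which the genes were chosen, was at 2.47 and 2.52 in NOD, 1.13 and 1.13 in NOD.H2h4, -0.55 and -0.61 in B6.NODIdd1,5 T cells, 0.24 and 0.04 in B6.NODIdd1,5 kidney, 2.77 and 2.83 in NODtoB6 and 0.98 and 0.84 in B6toNOD. It was thus highest in NODtoB6, next in NOD, intermediate in NOD.H2h4 and B6toNOD, near B6 in kidney and below B6 in B6.NODIdd1,5 T cells, with no overlap between neighbouring groups. Hbb-bh1 has values on 10 of the 12 arrays and is missing on both NOD.H2h4 arrays, while in B6toNOD it was at 0.45 and 0.52. The means of NOD.H2h4 and B6toNOD thus rest on different genes, and so does their separation. For Hbb-y and Hba-x the arrays of these groups overlapped, and for Hbb-b1 they did not. Beside the mean, 16 probes of the table are annotated to Hba-a2, Hba-a1 (adult alpha globins) and H3f3a (a histone) together. Since they carry several symbols, no gene is named from them, and their mean is called the alpha-annotated mean.

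**Figure D1:**
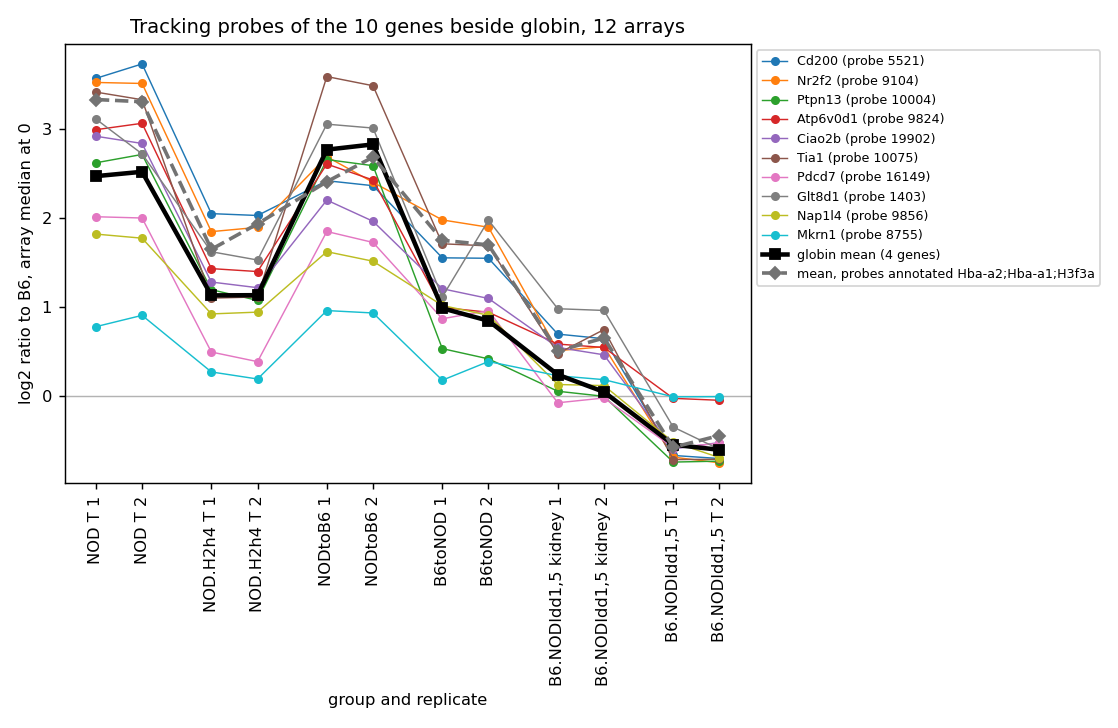
The log2 ratio to B6 (y axis, array median at 0) is plotted for each of the 12 arrays (x axis, 6 groups of 2 arrays) for the 10 tracking probes, the globin mean (black squares) and the alpha-annotated mean (grey diamonds). Lines join the arrays of a probe to guide the eye. Mkrn1 stays between -0.01 and 0.96 while Cd200 runs from -0.71 to 3.73.

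Cd200 and Nr2f2, the 2 genes with the highest NOD values among the members, moved almost together over the arrays. Cd200 (probe 5521) was at 3.57 and 3.73 in NOD, 2.05 and 2.03 in NOD.H2h4, -0.67 and -0.71 in B6.NODIdd1,5 T cells, 0.69 and 0.64 in B6.NODIdd1,5 kidney, 2.42 and 2.36 in NODtoB6 and 1.55 and 1.55 in B6toNOD. The NOD mean of 3.65 ± 0.11 (SD, n = 2) is 12.6-fold the B6 channel, and no neighbours in the order NOD, NODtoB6, NOD.H2h4, B6toNOD, kidney, B6.NODIdd1,5 T cells overlapped. Nr2f2 (probe 9104) was at 3.52 and 3.51 in NOD, 1.85 and 1.89 in NOD.H2h4, -0.69 and -0.75 in B6.NODIdd1,5 T cells, 0.51 and 0.55 in B6.NODIdd1,5 kidney, 2.69 and 2.40 in NODtoB6 and 1.98 and 1.90 in B6toNOD. Its groups did not overlap either, and B6toNOD stood just above NOD.H2h4. How many of all probes have groups without overlap was not counted, so here and below such separation is not set apart from the background. It also held for Mkrn1 probe 10687, which is not a tracking probe. The correlation of Cd200 with Nr2f2 over the 12 arrays was 0.988. Their correlations with the globin mean were 0.916 and 0.927, the lowest among the tracking probes. These had ranks 66 and 54 among the 14883 probes with a value on every array. Both genes lay closer to the alpha-annotated mean than to the globin mean, with correlations of 0.987 and 0.993. Their mean absolute differences from the alpha-annotated mean were 0.20 and 0.18 on the log2 scale. All these correlations describe 12 arrays that fall into 6 groups and share the B6 channel.

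Ptpn13 encodes a large non-receptor protein tyrosine phosphatase that can bind the death receptor Fas. Its probe 10004 was at 2.62 and 2.71 in NOD, 1.19 and 1.07 in NOD.H2h4, -0.75 and -0.73 in B6.NODIdd1,5 T cells, 0.05 and -0.01 in B6.NODIdd1,5 kidney, 2.66 and 2.59 in NODtoB6 and 0.53 and 0.42 in B6toNOD. Of all 14883 probes it had the highest correlation with the globin mean (0.990), with a slope of 1.05. NOD and NODtoB6 overlapped, unlike in Cd200 and Nr2f2.

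Tia1 encodes an RNA-binding protein of stress granules that also regulates splicing. Its tracking probe 10075 was at 3.41 and 3.33 in NOD, 1.10 and 1.11 in NOD.H2h4, -0.72 and -0.71 in B6.NODIdd1,5 T cells, 0.47 and 0.74 in B6.NODIdd1,5 kidney, 3.59 and 3.49 in NODtoB6 and 1.71 and 1.68 in B6toNOD. NODtoB6 was the highest group here, as for the globin mean, but with scaled arrays NOD was above NODtoB6 for both, and the slope on the globin mean was the steepest of the 10 (1.23). The probes of Glt8d1 and Mkrn1 also had their highest group mean in NODtoB6 after centring, and were higher in NOD with scaled arrays.

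Glt8d1 encodes a glycosyltransferase of the Golgi. Its tracking probe 1403 was at 3.11 and 2.72 in NOD, 1.62 and 1.53 in NOD.H2h4, -0.35 and -0.60 in B6.NODIdd1,5 T cells, 0.98 and 0.96 in B6.NODIdd1,5 kidney, 3.05 and 3.01 in NODtoB6 and 1.11 and 1.97 in B6toNOD. Its 2 B6toNOD arrays differed by 0.86, the widest gap between arrays of a group among the tracking probes, so that B6toNOD overlapped NOD.H2h4, and NOD overlapped NODtoB6.

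Mkrn1 encodes a RING-type E3 ubiquitin ligase. Its tracking probe 8755 was at 0.78 and 0.90 in NOD, 0.27 and 0.19 in NOD.H2h4, -0.01 and -0.01 in B6.NODIdd1,5 T cells, 0.23 and 0.18 in B6.NODIdd1,5 kidney, 0.96 and 0.93 in NODtoB6 and 0.18 and 0.38 in B6toNOD. Its correlation with the globin mean was 0.950, with a slope of 0.28. Its NOD.H2h4 and kidney means were close (0.23 and 0.20), where the globin mean was at 1.13 and 0.14. In B6.NODIdd1,5 T cells it was at B6 level, where the globin mean was at -0.58. B6toNOD, NOD.H2h4 and kidney overlapped in turn.

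The 4 remaining genes act in different cell processes. Atp6v0d1 encodes subunit d of the membrane sector of the vacuolar proton pump, and its probe 9824 was at 2.99 and 3.06 in NOD, 1.43 and 1.40 in NOD.H2h4, -0.03 and -0.05 in B6.NODIdd1,5 T cells, 0.58 and 0.54 in B6.NODIdd1,5 kidney, 2.60 and 2.43 in NODtoB6 and 0.99 and 0.94 in B6toNOD. Unlike most tracking probes it was close to B6 in B6.NODIdd1,5 T cells, and its groups did not overlap. Ciao2b encodes a component of the complex that delivers iron-sulphur clusters to cytosolic and nuclear proteins, and its probe 19902 was at 2.92 and 2.84 in NOD, 1.28 and 1.22 in NOD.H2h4, -0.60 and -0.53 in B6.NODIdd1,5 T cells, 0.54 and 0.46 in B6.NODIdd1,5 kidney, 2.20 and 1.96 in NODtoB6 and 1.20 and 1.09 in B6toNOD. Its groups did not overlap, and its correlation with the alpha-annotated mean (0.986) was above that with the globin mean (0.949). Pdcd7 encodes a protein of the U11/U12 particle of the minor spliceosome, and its tracking probe 16149 was at 2.01 and 1.999 in NOD, 0.49 and 0.38 in NOD.H2h4, -0.58 and -0.54 in B6.NODIdd1,5 T cells, -0.08 and -0.02 in B6.NODIdd1,5 kidney, 1.85 and 1.72 in NODtoB6 and 0.87 and 0.96 in B6toNOD. Its groups did not overlap. Nap1l4 encodes a histone chaperone, and its probe 9856 was at 1.82 and 1.77 in NOD, 0.92 and 0.94 in NOD.H2h4, -0.52 and -0.70 in B6.NODIdd1,5 T cells, 0.13 and 0.11 in B6.NODIdd1,5 kidney, 1.62 and 1.51 in NODtoB6 and 1.02 and 0.90 in B6toNOD. There NOD.H2h4 and B6toNOD overlapped, and the correlation with the alpha-annotated mean (0.988) was again above that with the globin mean (0.960).

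Among themselves the 10 tracking probes had pairwise correlations of 0.82 to 0.99 (median 0.95 over 45 pairs). Their values ranged over 0.97 to 4.44 between the lowest and the highest array, with a median range of 3.49 against 1.68 for all probes with 12 values. The median absolute difference between the 2 arrays of a group had a median of 0.07 over the tracking probes, against 0.15 over all probes with 12 values and 0.21 over the 6 other probes. The tracking probes were chosen for their correlation with the globin mean. Their mutual correlations, wide range and close replicates follow in part from that choice. The likeness lies between the groups: with 1 value per group it was 0.92 to 0.99, while the differences between replicate 1 and replicate 2 had correlations of -0.80 to 0.40 with those of the globin mean (6 differences each). On the 10 T cell arrays alone the correlations were 0.91 to 0.99. With both B6.NODIdd1,5 T cell arrays left out the lowest fell to 0.85 (Cd200), and without both NODtoB6 arrays it was 0.92 (Mkrn1). With the sign of the NODtoB6 arrays turned the correlations were 0.97 to 0.99, and with that of the B6toNOD arrays turned 0.94 to 0.99, so they do not settle the direction of those arrays. Against single globin probes in place of the mean they ran from 0.71 to 0.99. As the array median is the zero point, the sign of values near 0 depends on it. As deposited, 7 of the 60 group means of tracking probes changed sign, among them Pdcd7 in NOD.H2h4 (-0.37), Mkrn1 in NOD.H2h4 (-0.58), kidney (-0.26) and B6toNOD (-0.45), Nap1l4 in kidney (-0.34), and Ptpn13 in kidney (-0.44) and B6toNOD (-0.26). With the running median 3 changed sign, Mkrn1 (0.22) and Atp6v0d1 (0.19) in B6.NODIdd1,5 T cells and Pdcd7 in kidney (0.09), and without kidney replicate 1 Ptpn13 in kidney did (-0.01). Scaled to a common spread, the NOD means were larger, with Cd200 at 6.38, Nr2f2 at 6.17 and Mkrn1 at 1.46.

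The 10 probes are not all that follow globin. Of the 14883 probes with 12 values, 87 (0.585%) had a correlation above 0.9, made up of the 10 tracking probes, 6 probes of the globins of the mean, 15 alpha-annotated probes and 56 others. Of the 56, 31 carry a single symbol and 25 do not. Outside the members and the 4 globins, the genes closest to the globin mean were Psmc3ip (0.959), Phtf1 (0.958), Pnpla7 (0.950), Psph (0.944), Zfp943 (0.944), Wapl (0.940), Pcif1 (0.938), Fech (0.936), Ypel5 (0.936) and Brox (0.933). Those most opposed were Txlng (-0.942), Nr0b2 (-0.929) and Edem3 (-0.923). Closest to Cd200 were Rhbdd3 (0.989), Phtf1 (0.978), Nfic (0.978), Sgms1 (0.964) and Stat3 (0.958). Closest to Nr2f2 were Rhbdd3 (0.998), Nfic (0.987), Phtf1 (0.985), Stat3 (0.977) and Ypel5 (0.969). Of these Rhbdd3 and Phtf1 matched the size of the members' values too, with NOD means of 3.81 and 3.31 and NODtoB6 means of 2.59 and 2.75, while Stat3 was at 0.27 and -0.13.

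**Figure D2:**
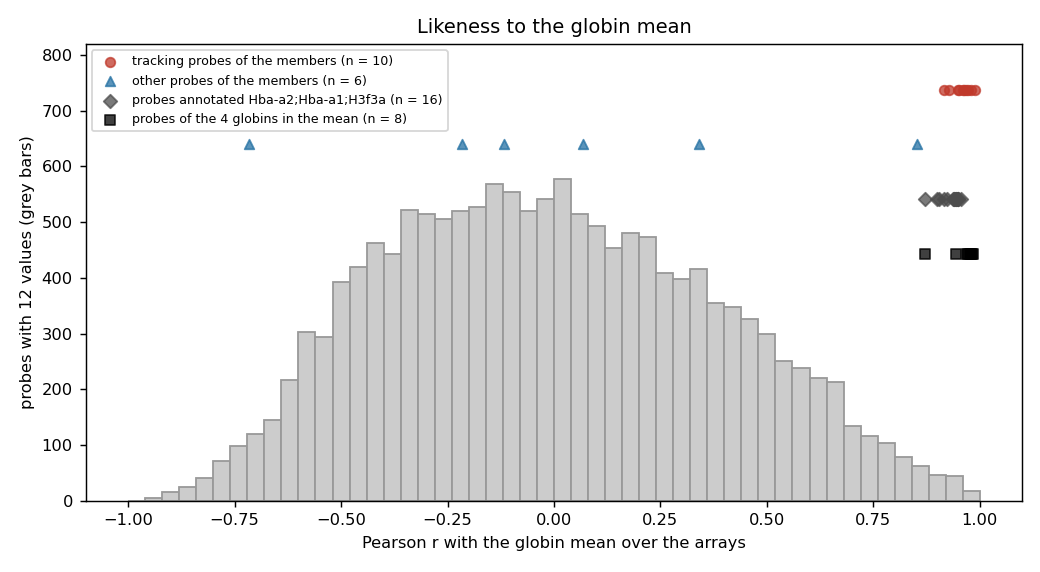
Grey bars count the 14883 probes with 12 values (y axis) by their Pearson correlation with the globin mean over the arrays (x axis). Symbols above mark the 10 tracking probes, the 6 other probes of the members, the 16 alpha-annotated probes and the 8 probes of the 4 globins, and their height has no meaning. The tracking probes lie from 0.916 to 0.990, the other probes from -0.72 to 0.85.

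After centring, NOD and NODtoB6 separate the members, though not with scaled arrays. The NOD mean exceeded the NODtoB6 mean by 1.26 for Cd200, 0.97 for Nr2f2, 0.80 for Ciao2b, 0.51 for Atp6v0d1, 0.23 for Nap1l4, 0.22 for Pdcd7 and 0.04 for Ptpn13. It was lower by a difference of -0.10 for Mkrn1, -0.12 for Glt8d1 and -0.17 for Tia1. Each of the 16 alpha-annotated probes was higher in NOD, by 0.38 to 1.53, as were both Hbb-b1 probes (0.25 and 0.70), whereas the 6 probes of the embryonic globins were all lower in NOD than in NODtoB6 (-0.91 to -0.28). After centring Cd200, Nr2f2, Ciao2b and Atp6v0d1 fell within the range of the alpha-annotated probes in this difference, and no tracking probe fell within that of the embryonic globin probes. The split depended on the scaling. With arrays scaled to a common spread all 10 tracking probes (0.42 to 3.75), all 16 alpha-annotated probes (2.27 to 4.19), both Hbb-b1 probes and all 6 embryonic globin probes (0.15 to 1.52) were higher in NOD, and so was the globin mean. As deposited the counts were those after centring, and with the running median Ptpn13 (-0.23) and Pdcd7 (-0.04) joined Mkrn1 and Tia1 below 0 while Glt8d1 was higher in NOD (0.68). These differences are between strain arrays and marrow transfer arrays, whose dyes are not both known, and were not tested. In table order, 6 of the 10 tracking probes, 15 of the 16 alpha-annotated probes and 6 of the 8 globin probes lie in rows 6913 to 10368, which hold 16.7% of all probes. The window was chosen after the positions were seen, and the part of the position in the likeness was not tested beyond the subtraction of a running median, which left correlations of 0.82 to 0.99.

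**Figure D3:**
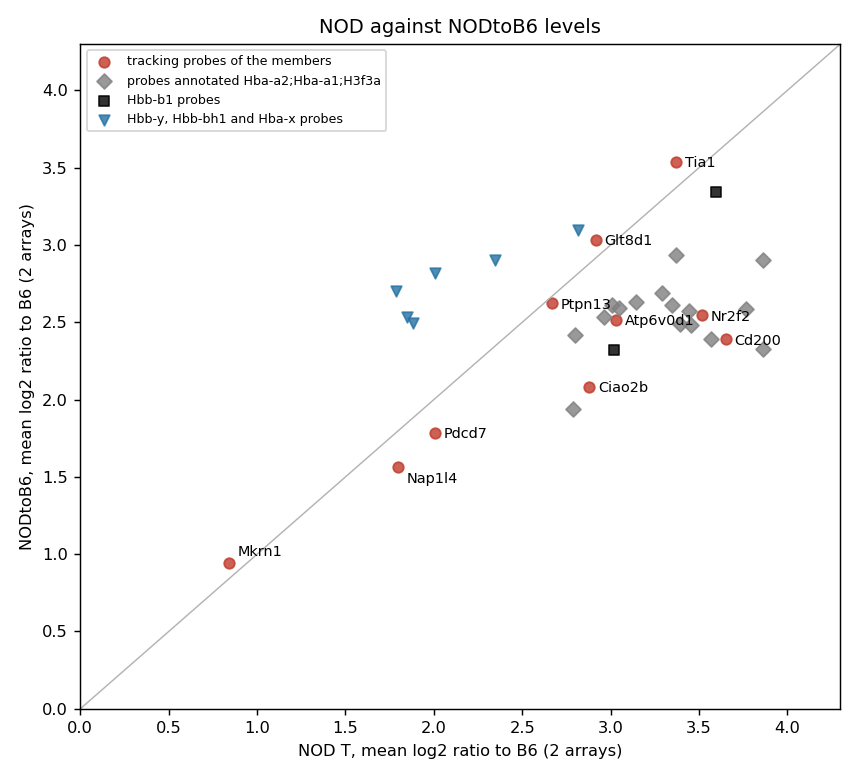
Mean log2 ratios to B6 over 2 arrays each are plotted for NOD (x axis) and NODtoB6 (y axis), with equal values on the grey line. Points are the 10 tracking probes (named), the 16 alpha-annotated probes, the 2 Hbb-b1 probes and the 6 probes of Hbb-y, Hbb-bh1 and Hba-x, which lie above the line while the alpha-annotated probes lie below it. With scaled arrays all of them lay below it.

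The 6 other probes of the same genes did not share the pattern, with the exception of 1 probe of Mkrn1. The probe with the highest correlation of each gene had been set apart, so a lower likeness of the rest follows in part from that choice. Mkrn1 probe 10687 was at 0.76 and 0.81 in NOD, -0.46 and -0.57 in NOD.H2h4, -0.38 and -0.44 in B6.NODIdd1,5 T cells, -0.22 and -0.34 in B6.NODIdd1,5 kidney, 0.99 and 1.01 in NODtoB6 and 0.32 and 0.38 in B6toNOD. Its correlation with the globin mean was 0.85, and it was below B6 in NOD.H2h4, where the tracking probe of Mkrn1 was above. It passed the test (limma, Benjamini-Hochberg) in each comparison. It rose by 0.79 ± 0.067 in NOD (SE, n = 2, adjusted p = 9e-04), by 0.998 ± 0.067 in NODtoB6 (adjusted p = 0.00011) and by 0.35 ± 0.067 in B6toNOD (adjusted p = 0.0036). It fell by 0.51 ± 0.067 in NOD.H2h4 (adjusted p = 0.00082), by 0.41 ± 0.067 in B6.NODIdd1,5 T cells (adjusted p = 0.0033) and by 0.28 ± 0.067 in kidney (adjusted p = 0.015). The kidney call was lost without either kidney array (adjusted p = 0.071 and 0.20, over all alternatives 0.0031 to 0.20), and in B6toNOD the value was -0.38 as deposited and missed the threshold with scaled arrays (0.22, adjusted p = 0.086, over all alternatives 0.0011 to 0.086).

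Mkrn1 probe 18357 was close to its gene's tracking probe in NOD and lay far below B6 in NODtoB6, where the tracking probe was highest. It was at 0.72 and 0.91 in NOD, 0.79 and 0.46 in NOD.H2h4, 3.16 with 1 value missing in B6.NODIdd1,5 T cells, 3.58 and 0.93 in B6.NODIdd1,5 kidney, -5.67 and -2.17 in NODtoB6 and 0.13 and 0.35 in B6toNOD. Its correlation with the globin mean was -0.72 over 11 arrays, and its pairs of arrays differed by up to 3.50. It fell by 3.92 ± 0.88 in NODtoB6 (adjusted p = 0.021), a call that was lost without NODtoB6 replicate 1 (-2.17, adjusted p = 0.14, over all alternatives 0.013 to 0.14).

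Tia1 probe 7517 was at 0.49 and 0.51 in NOD, 0.95 and 0.94 in NOD.H2h4, -0.59 and -0.30 in B6.NODIdd1,5 T cells, 0.25 and 0.20 in B6.NODIdd1,5 kidney, -0.02 and -0.08 in NODtoB6 and 0.26 and 0.13 in B6toNOD. It was highest in NOD.H2h4 and at B6 level in NODtoB6, the group in which the tracking probe of Tia1 was highest, and its correlation with the globin mean was 0.34. It rose by 0.95 ± 0.083 in NOD.H2h4 (adjusted p = 0.00015) and by 0.50 ± 0.083 in NOD (adjusted p = 0.010), and fell by 0.44 ± 0.083 in B6.NODIdd1,5 T cells (adjusted p = 0.0060). In NODtoB6 it was at -0.05 ± 0.083 (adjusted p = 0.71). The NOD call was lost without either NOD array (adjusted p = 0.067 and 0.12) and as deposited (0.35, adjusted p = 0.25), with a range of 0.00043 to 0.25 over all alternatives. The NOD.H2h4 call was lost as deposited (0.14, adjusted p = 0.41, the highest of its alternatives, the lowest being 6.4e-05). That in B6.NODIdd1,5 T cells was lost without replicate 1 (-0.30, adjusted p = 0.070, over all alternatives 0.0036 to 0.070).

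The third probe of Tia1, 20194, was at -0.32 and -0.12 in NOD, -1.24 and -1.34 in NOD.H2h4, -0.04 and -0.03 in B6.NODIdd1,5 T cells, 1.23 on a single kidney array, -0.20 and 0.48 in NODtoB6 and had no value in B6toNOD. It fell by 1.29 ± 0.17 in NOD.H2h4 (adjusted p = 0.0025), the group in which probe 7517 rose, and its correlation with the globin mean was -0.12 over 9 arrays. The 3 probes of Tia1 thus gave 3 different orders of the groups.

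Pdcd7 probe 3838 was at -0.29 and -0.77 in NOD, -0.60 and -0.86 in NOD.H2h4, 0.46 and 0.53 in B6.NODIdd1,5 T cells, 0.46 and 0.28 in B6.NODIdd1,5 kidney, 0.26 and 0.99 in NODtoB6 and -0.31 with 1 value missing in B6toNOD. It lay below B6 in NOD and above B6 in B6.NODIdd1,5 T cells, where the tracking probe of Pdcd7 did the reverse, and its correlation with the globin mean was -0.22 over 11 arrays. It fell by 0.73 ± 0.20 in NOD.H2h4 (adjusted p = 0.026), was at -0.53 ± 0.20 in NOD (adjusted p = 0.15) and at 0.63 ± 0.20 in NODtoB6 (adjusted p = 0.059). The NOD.H2h4 call was lost without either NOD.H2h4 array (adjusted p = 0.093 and 0.21), with scaled arrays (0.073) and after the running median (0.057), with a range of 0.0024 to 0.21 over all alternatives. In NOD it passed with scaled arrays (-0.87, adjusted p = 0.020, over all alternatives 0.020 to 0.90). In NODtoB6 it passed without NODtoB6 replicate 1 (0.99, adjusted p = 0.024) and without either B6toNOD array (adjusted p = 0.047), with a range of 0.024 to 0.46 over all alternatives.

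Glt8d1 probe 8194 was at -0.06 and -0.12 in NOD, -0.86 and -0.16 in NOD.H2h4, 0.04 and -0.16 in B6.NODIdd1,5 T cells, 0.16 and 0.13 in B6.NODIdd1,5 kidney, -0.14 and 0.20 in NODtoB6 and -0.86 and -2.35 in B6toNOD. In NOD, where the tracking probe of Glt8d1 had a mean of 2.92, it was at -0.09 ± 0.32 (adjusted p = 0.96). It fell by 1.61 ± 0.32 in B6toNOD (adjusted p = 0.0041), or by 0.86 without B6toNOD replicate 2 (adjusted p = 0.024, over all alternatives 0.00046 to 0.024).

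**Figure D4:**
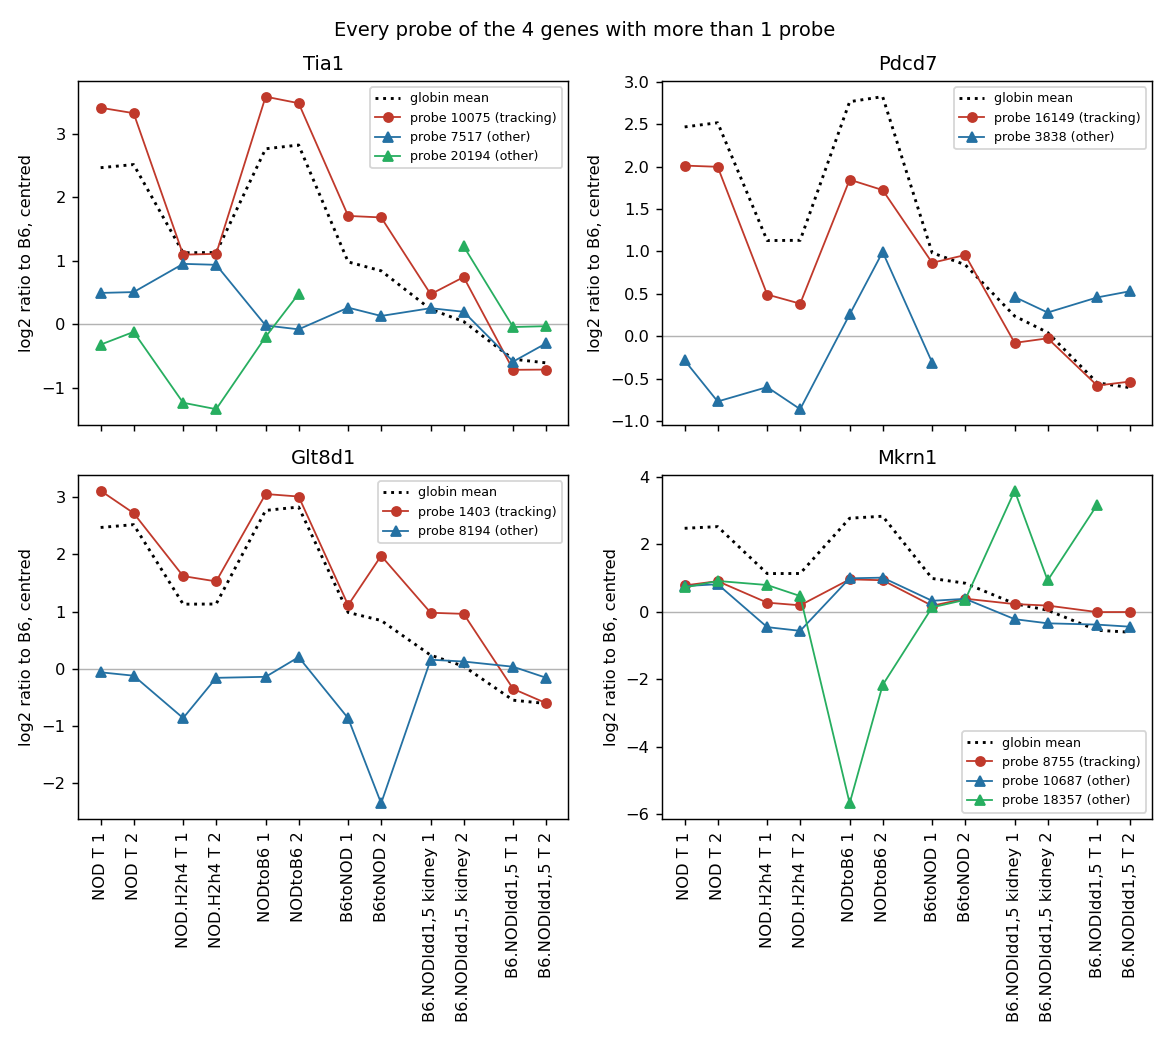
Each panel shows every probe of Tia1, Pdcd7, Glt8d1 or Mkrn1 as log2 ratio to B6 (y axis, array median at 0) on the 12 arrays (x axis), with the tracking probe as red circles, other probes as triangles and the globin mean dotted. Gaps are missing values. Only Mkrn1 probe 10687 among the other probes keeps the order of NODtoB6, NOD and B6toNOD above the rest.

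Counted together, 2 of 6 other probes rose in NOD and 0 fell (3 at an unadjusted p under 0.05), beside 10.04% higher and 2.94% lower of all probes tested. In NOD.H2h4 1 of 6 rose and 3 fell, beside 24.7% higher and 16.7% lower. In B6.NODIdd1,5 T cells 2 of 5 fell and 0 rose (3 unadjusted), beside 17.4% lower and 15.1% higher, and in kidney 1 of 5 fell and 0 rose (3 unadjusted), beside 11.8% lower and 23.5% higher. In NODtoB6 1 of 6 rose and 1 fell, beside 14.3% higher and 13.6% lower, and in B6toNOD 1 of 4 rose and 1 fell, beside 29.8% higher and 23.7% lower. The difference of NOD from B6.NODIdd1,5 T cells, both measured with the dyes in the same orientation, had 2 of 5 higher and 1 lower, beside 16.5% higher and 10.4% lower. In it Mkrn1 probe 10687 was higher by 1.20 ± 0.095 (adjusted p = 0.00022) and Tia1 probe 7517 by 0.94 ± 0.12 (adjusted p = 0.0016). Pdcd7 probe 3838 was lower (-1.02 ± 0.28, adjusted p = 0.039). That call was lost without any one of the NOD, NOD.H2h4, B6.NODIdd1,5 T cell or kidney arrays, as deposited, after the running median and with a replicate block (adjusted p = 0.063), with a range of 0.010 to 0.20 over all alternatives. With so few probes these counts are not set apart from the background. The zero point moved the background. Of all probes called, the share that was higher was 77.3% in NOD after centring, 52.7% as deposited and 62.5% with scaled arrays. Centred and as deposited it was 59.6% and 3.79% in NOD.H2h4, 46.4% and 25.1% in B6.NODIdd1,5 T cells, 66.5% and 8.61% in kidney, 51.3% and 17.9% in NODtoB6 and 55.7% and 11.5% in B6toNOD. No probe sequence was used, so whether the probes of a gene measure the same transcript was not tested.

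Red cell genes outside the globins partly moved with the members. Of 34 erythroid markers, 21 had 29 probes, of which 4 followed the globin mean with a correlation above 0.9: Alas2, which starts haem synthesis in red cells (0.941), Fech, which inserts iron into haem (0.936), Bpgm, which makes the red cell metabolite 2,3-bisphosphoglycerate (0.921), and the transferrin receptor gene Tfrc (0.902). Alas2 was at 2.21 and 1.65 in NOD, 0.66 and 0.79 in NOD.H2h4, -0.63 and -1.07 in B6.NODIdd1,5 T cells, 0.40 and 0.57 in B6.NODIdd1,5 kidney, 2.78 and 2.83 in NODtoB6 and 1.62 with 1 value missing in B6toNOD. Fech was also above B6 in NOD (0.96 and 1.15) and NOD.H2h4 (0.23 and 0.15). Bpgm was at 1.80 and 1.84 in NOD but at -0.69 and -0.58 in NOD.H2h4. Tfrc was near B6 in NOD (0.08 and -0.16) and below it in NOD.H2h4 (-0.60 and -0.67) and B6toNOD (-0.61 and -0.85). As with the members, other probes of these genes did not follow: the second probe of Bpgm had a correlation of 0.24, that of Fech 0.52, and the other 3 of Tfrc -0.45, -0.38 and 0.03. Here too the contrast follows in part from naming the probes by their correlation. Over the list 6 of 28 probes rose in NOD, 1 fell and 21 did not pass (median 0.23, against -0.01 over all probes). It had 9 higher and 3 lower of 25 in NODtoB6 (median 0.35) and 4 higher and 11 lower of 29 in B6.NODIdd1,5 T cells (median -0.40). In NOD.H2h4 10 of 29 were higher and 6 lower (median -0.19). In kidney 3 of 29 were higher and 6 lower (median -0.16), and in B6toNOD 7 of 25 higher and 7 lower (median -0.25). Over all probes the higher and lower shares were 10.04% and 2.94% in NOD, 14.3% and 13.6% in NODtoB6, and 15.1% and 17.4% in B6.NODIdd1,5 T cells. They were 24.7% and 16.7% in NOD.H2h4, 23.5% and 11.8% in kidney, and 29.8% and 23.7% in B6toNOD. In bulk samples fewer cells of a type and less RNA per cell cannot be told apart, ratios to B6 hold no absolute level, and the part of red cells in the members' values was not tested.

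Markers of other cells differed from B6 in several of the same groups. Neutrophil and monocyte markers had 6 of 7 probes higher in NOD (median 0.59) and 6 of 7 in NODtoB6 (median 0.96). Their highest group, however, was B6toNOD (median 3.11), and their correlations with the globin mean lay between -0.52 and 0.48. The 7 probes came from 5 of 15 listed genes, and the B cell probes below from 4 of 11. Of all probes 10.04% were higher in NOD and 14.3% in NODtoB6, while 24.7% were higher and 16.7% lower in NOD.H2h4. B cell markers had 3 of 6 probes higher in NOD (median 0.31), of which 2 were probes of Cd24a and 1 of Ighm, while Blk (-0.50) and Cd79b (-0.77) did not pass. In NOD.H2h4, where most tracking probes were well above B6, 4 of the 6 B cell probes were lower and 1 higher (median -0.94). Of 3 platelet and megakaryocyte probes 1 fell in NOD, while in NODtoB6 1 of 2 rose and 0 fell. Of 17 endothelial and stromal probes 0 passed in either direction in NOD (2 at an unadjusted p under 0.05, limma), with a highest correlation of 0.60. In NODtoB6 4 of 17 fell and 1 rose, beside 13.6% lower and 14.3% higher of all probes. In B6toNOD 5 of 16 fell and 3 rose, beside 23.7% lower and 29.8% higher. Only 6 of 17 T cell markers listed had probes, and a ratio to B6 T cells does not show whether T cells made up the samples. Of their 7 probes 1 rose, that of the costimulatory receptor Cd28 (0.59 ± 0.10, adjusted p = 0.011), which also followed the globin mean with a correlation of 0.92. The part of these cells in the members' values was not tested.

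In the lists of genes that work with the members, no probe had a correlation above 0.9 with the globin mean. The highest were 0.83 among partners of Pdcd7 and 0.82 among histone chaperones, and the lowest was -0.90 for iron-sulphur assembly. Calls below are for NOD unless another group is named. In the CD200 receptor pathway 1 of 7 probes rose in NOD, that of Cd47, another ligand of inhibitory myeloid receptors (probe 20573, 0.65 ± 0.10, adjusted p = 0.0086), and the highest correlation with the globin mean was 0.71 (Cd200r3). Among relatives of Nr2f2 and factors of globin switching 0 of 17 probes passed in NOD (2 unadjusted), with a highest correlation of 0.71 (Hdac1). Of 15 probes of phosphatases related to Ptpn13 and of Fas 2 rose, those of Ptpn14 and Fas, and of 18 probes of other subunits of the vacuolar proton pump 2 rose and 2 fell. Of 10 probes for iron-sulphur assembly 1 rose, that of Ciao2a, the paralogue of Ciao2b (0.40 ± 0.10, adjusted p = 0.036), whose correlation with the globin mean was -0.22. Of 12 probes for partners of Pdcd7 in the minor spliceosome 2 rose. The probe of Rnpc3, which binds U12 RNA, was at 3.18 and 2.66 in NOD, 2.03 and 2.02 in NOD.H2h4, -0.51 and 2.48 in B6.NODIdd1,5 T cells, 0.74 and 0.77 in B6.NODIdd1,5 kidney, 2.997 and 2.97 in NODtoB6 and 1.59 and 1.43 in B6toNOD. It was as high as the members in NOD and NODtoB6, but its B6.NODIdd1,5 T cell arrays disagreed. Among relatives of Tia1 and stress granule proteins 0 of 14 probes passed (3 unadjusted), among histone chaperones related to Nap1l4 1 of 21 fell, and among relatives of Mkrn1 and Glt8d1 0 of 3 passed (0 unadjusted). In B6.NODIdd1,5 T cells 9 of 19 histone chaperone probes were lower and 0 higher (median -0.39), beside 17.4% lower and 15.1% higher of all probes. The background in NOD was the 10.04% higher and 2.94% lower given above, and the lists were not tested as sets.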

How the data were processed

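The authors' deposited series table holds, for 12 arrays in 6 groups of 2, values read as log2 ratios of the experimental over the B6 channel; the log2 scale was taken from the values. The sources used here do not say how images were read or normalized. Spot intensities were not analysed. The table has 20736 probes, of which 13033 carry 1 gene symbol, 312 several and 7391 none; 12850 of the 13033 were found in RefSeq. Cells at a ratio of 100000 (146) were treated as missing. Each array was centred on its median.

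The members and the 15 gene lists were chosen with earlier results of these data known. All member probes were described; beside them the 10 genes closest to the globin mean, the 3 most opposed and the 5 closest to Cd200 and to Nr2f2 were named by Pearson correlation, among probes with 1 symbol and 12 values. Group means were tested against 0, so the B6 control's own spread does not enter, with limma 3.58.1 in R 4.3.3 over all probes (6 residual and 1.34 prior degrees of freedom) and Benjamini-Hochberg adjustment at 0.05. The fit was tested on simulated data. The small number of arrays limits the precision. Alternatives were values as deposited, scaled arrays, a running median along the table, probes with 12 values, a replicate block and leaving out each array.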

Additional observations from a re-analysis of the deposited data

Results flagged for a closer look

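In B6.NODIdd1,5 mice 9 probes of 8 member genes lay above B6 on both kidney arrays and below B6 on both T cell arrays. All but Tia1 probe 7517 are tracking probes, chosen to follow the globin mean. That mean was itself at 0.14 in kidney and -0.58 in T cells, so the choice of probes in part sets this pattern. The share of all probes with the pattern was not counted. The kidney mean exceeded the T cell mean by 1.36 for Cd200, 1.25 for Nr2f2, 1.06 for Ciao2b, 0.60 for Atp6v0d1, 0.73 for Nap1l4 and 0.21 for Mkrn1 (probe 8755) on the log2 scale. It exceeded it by 1.45 for Glt8d1 (probe 1403), by 1.33 for Tia1 probe 10075 and by 0.67 for Tia1 probe 7517. Each difference is between 2 kidney arrays and 2 T cell arrays with different B6 controls, and the difference was not tested. With values as deposited 5 of the 9 probes kept these sides on both arrays of each tissue, and Ciao2b, Tia1 probe 7517, Nap1l4 (kidney mean -0.34) and Mkrn1 (-0.26) did not. After the running median 7 kept them, and Atp6v0d1 and Mkrn1 had T cell means of 0.19 and 0.22. With scaled arrays all 9 kept them.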

How the results depend on the processing

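Among the other-probe values under all alternatives, 555 kept their direction and side of the threshold, 24 lost the threshold, 17 gained it and 17 changed sign. Of the sign changes, those of Tia1 probe 7517 (-0.54) and Mkrn1 probe 10687 (-0.38) in B6toNOD as deposited passed the threshold, and the rest missed it before and after. As deposited Mkrn1 probe 18357 turned to -0.18 in NOD.H2h4 and -0.49 in B6toNOD, and in kidney Pdcd7 probe 3838 to -0.090, Tia1 probe 7517 to -0.23 and Glt8d1 probe 8194 to -0.32. In NODtoB6 Glt8d1 probe 8194 turned to -0.19 and Tia1 probe 20194 to -0.0815, and in the difference of NOD from B6.NODIdd1,5 T cells Glt8d1 probe 8194 to 0.012. After the running median Glt8d1 probe 8194 turned to 0.035 in B6.NODIdd1,5 T cells and -0.038 in NODtoB6, and Mkrn1 probe 18357 to -0.0415 in B6toNOD. With 1 array left out Glt8d1 probe 8194 ran from -0.16 to 0.035 in B6.NODIdd1,5 T cells, from -0.14 to 0.20 in NODtoB6 and from -0.13 to 0.066 in that difference, and Tia1 probe 20194 from -0.20 to 0.48 in NODtoB6. Of all probes, 2613 passed in NOD, 273 as deposited, 6443 with scaled arrays and 242 to 3315 with 1 array left out (1206 without NOD replicate 1, 242 without replicate 2, 1657 without either kidney array). In NOD.H2h4 8277 passed, 12602 as deposited and 5158 to 9833 with 1 array left out (5158 and 5180 without its own replicate 1 and 2). In kidney 6924 passed, and 3240 to 8342 with 1 array left out (3240 and 3434 without its own). In NODtoB6 5352 passed, and 3084 to 6946 with 1 left out (3084 without its replicate 2). In B6toNOD 9411 passed, and 5860 with scaled arrays. In the difference of NOD from B6.NODIdd1,5 T cells 4825 passed, 2836 as deposited and 2289 to 6023 with 1 left out (2289 without NOD replicate 2). Of the other probes, 2 passed in NOD (1 as deposited, 1 to 2 with 1 array left out), 4 in NOD.H2h4 (2 with values on all arrays), 2 in B6.NODIdd1,5 T cells (1 to 3 with 1 left out) and 1 in kidney (2 after the running median, 0 to 2 with 1 left out). In NODtoB6 2 passed (1 with values on all arrays) and in B6toNOD 2 (1 with scaled arrays). The cause of these shifts was not tested, apart from the fewer arrays or probes of some fits. Replicate numbers did not pair the arrays (correlations of -0.03 to 0.02 over 15 pairs of groups), and the replicate block gave 2248 probes in NOD and 4503 in the difference. Where 1 array of a group is left out, the lone array is assumed to vary like the other groups. Signal over background was not analysed.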
